A study of Rattus norvegicus with 24 samples.

Results

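The genes described here carry ketone bodies and lactate into heart cells and prepare ketone bodies for oxidation. They are Slc16a1, Bsg, Bdh1, Oxct1 and Acat1, and they are 5 of the 22093 genes that the array annotation ties to a transcript cluster (a set of probes read as 1 value) with a single symbol. They were chosen by name for their place in the pathway. Each had exactly 1 such cluster, so no choice between probes was needed.

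Ketone bodies are made in the liver and burnt in mitochondria of other organs, among which the heart is an avid user. They cross the cell membrane, as lactate and pyruvate do, through proton-linked monocarboxylate transporters that need a glycoprotein partner to reach the membrane. Inside the mitochondrion beta-hydroxybutyrate is oxidised to acetoacetate, acetoacetate is activated with coenzyme A taken from succinyl-CoA, and the product is split into acetyl-CoA for the citric acid cycle.

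The study fed rotenone, an inhibitor of complex I of the respiratory chain, to rats and profiled RNA from the apex of the left ventricle on whole-transcript arrays. All animals were male RccHan Wistar rats, aged 7 to 8 weeks, and they received feed with rotenone at 0 ppm (control) or 400 ppm for 1, 3 or 14 days. This gave 6 groups of 4 arrays, 1 rat per array. There was no pair-fed group, so if treated rats ate less, an effect of rotenone and an effect of eating less cannot be told apart.

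Values are log2 of the deposited intensities, so 1 unit is a 2-fold difference. Across the 24 arrays the median value lay between 4.94 and 5.19, and arrays of a group correlated with each other at a mean r between 0.986 and 0.990. Probes built as negative controls set a dimness bound of 8.44, below which 95% of them lay, and 14.7% of the 68842 clusters tested had a mean above it. The 5 measured cardiomyocyte markers lay above the bound and none was called on any day, with a summed level between 20.22 and 20.35 in all 24 hearts. Actc1, with a mean of 19.84, weighs most in this sum. At day 1 the sum was 20.310 to 20.349 in control hearts and 20.223 to 20.308 with rotenone, without overlap. The share of cardiomyocytes in the tissue was not tested. The 3 hepatocyte and 4 adipocyte markers had means below it. A gene was called when its adjusted p from limma, over all clusters, was under 0.05. Standard errors come from a spread shared by the 6 groups.

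Sequence is shown for the transporter, its partner and the dehydrogenase, because the first pair form 1 complex and yet had unlike values at day 1, and the dehydrogenase had the largest difference of the 5 genes. Each line is the 250 bases before the start of 1 RefSeq transcript (GRCr8), read 5′ to 3′ on the gene's strand, and other transcripts of these genes may start elsewhere. Capitals mark CACGTG, the E-box hexamer, which reads alike on both strands.
Slc16a1, chr2:194812410-194812659, plus strand: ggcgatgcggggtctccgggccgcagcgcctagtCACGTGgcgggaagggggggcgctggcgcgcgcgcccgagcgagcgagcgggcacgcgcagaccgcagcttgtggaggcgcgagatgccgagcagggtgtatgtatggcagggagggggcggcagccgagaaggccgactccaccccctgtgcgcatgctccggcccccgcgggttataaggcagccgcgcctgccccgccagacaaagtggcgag
Bsg, chr7:10651006-10651255, minus strand: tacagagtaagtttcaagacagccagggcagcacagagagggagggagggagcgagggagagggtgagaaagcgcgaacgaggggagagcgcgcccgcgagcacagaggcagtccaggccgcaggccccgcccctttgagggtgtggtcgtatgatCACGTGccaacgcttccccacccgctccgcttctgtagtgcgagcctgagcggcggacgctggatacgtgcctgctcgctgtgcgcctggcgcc
Bdh1, chr11:82842637-82842886, minus strand: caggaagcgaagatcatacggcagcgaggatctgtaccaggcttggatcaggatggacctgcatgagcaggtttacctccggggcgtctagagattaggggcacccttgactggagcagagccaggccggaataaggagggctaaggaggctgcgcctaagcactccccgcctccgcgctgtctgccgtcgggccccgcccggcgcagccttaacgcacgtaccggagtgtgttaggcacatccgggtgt

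The hexamer CACGTG occurred once before Slc16a1, its first base lying 216 bases before the start, and once before Bsg, at 94 bases. It had no match before Bdh1, Oxct1 or Acat1, and 5.59% of the 33469 rat promoter windows of this length held it. The GC box GGGCGG, searched on both strands, was found before all 5 genes and in 30.5% of all windows. The windows of the 5 genes were rich in G and C, from 58.4% for Acat1 to 74.0% for Slc16a1, where the median window had 51.2%. CCAAT matched before Acat1 alone, in 2 places, and in 34% of all windows. Neither the nuclear receptor half-site AGGTCA nor the GATA hexamer AGATAA matched in any of the 5, against 14.1% and 10.3% of all windows. No matches overlapped in these 5 windows, and a match is a description of letters only.

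**Figure D1:**
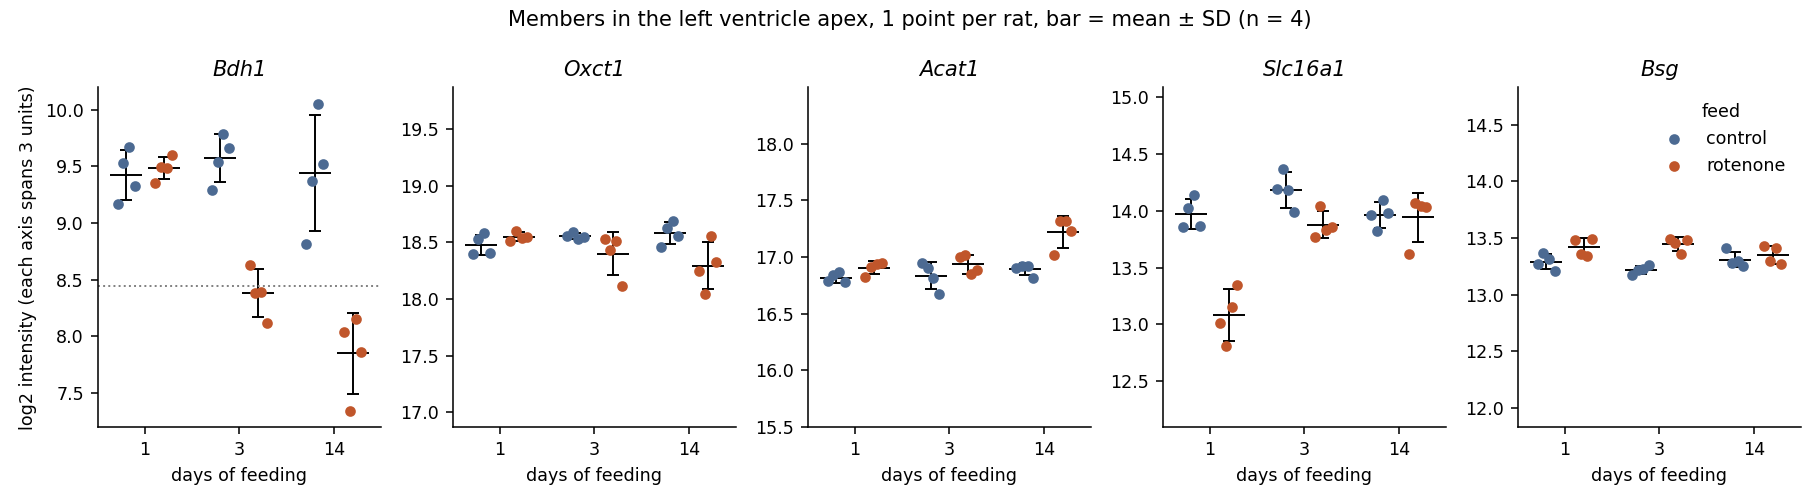
Log2 intensity of the 5 genes (vertical axes, each spanning 3 log2 units) after 1, 3 and 14 days of control feed or rotenone feed (horizontal axes). Each point is 1 rat, each bar the mean ± SD of 4 rats, and the dotted line in the first panel is the dimness bound of 8.44. Slc16a1 was low in rotenone hearts at day 1, Bdh1 at days 3 and 14, and Acat1 was high at day 14.

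The first question was whether the uptake step changed. Slc16a1 (MCT1), the transporter of lactate, pyruvate and ketone bodies, fell at day 1 and was not called at days 3 and 14. Its control values at day 1 were 13.86, 13.87, 14.03 and 14.14, and its rotenone values were 12.81, 13.01, 13.15 and 13.35. Every treated heart was lower than every control heart of that day, and also lower than every control heart of the other days. The means were 13.97 ± 0.13 and 13.08 ± 0.23 (SD, n = 4), a decrease of 1.86-fold (log2 change -0.89 ± 0.12, SE, limma adjusted p = 0.0014).

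Slc16a1 was the only member of the 5 called at day 1, when 0.49% of all clusters and 2.24% of those above the bound were called. It was also the only member whose groups did not overlap that day, which was true of 10.1% of all genes and 22.1% of those above the bound. The call was kept with each of the 8 arrays of the day left out, with adjusted p between 0.00194 and 0.00825. It was lost when the fit held only those 8 arrays (adjusted p = 0.0675).

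Some smooth muscle markers were also low that day without being called. Acta2, smooth muscle actin, had a log2 change of -0.97 with groups that did not overlap (limma adjusted p = 0.149). Myh11 and Rgs5 had -0.57 and -0.17, and Cspg4, with a mean under the bound, went the other way with 0.16. The groups of these overlapped (limma adjusted p of 0.565 or more). The median of the 4 smooth muscle and pericyte markers was -0.37. The summed level of the 4, in which Rgs5 (mean 16.45) weighs most, overlapped between the groups. It was 16.41 to 17.04 in control hearts and 15.95 to 16.73 with rotenone. The part of these cells in the Slc16a1 result was not tested.

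By day 3 the transporter's groups overlapped. Control hearts read 13.99, 14.18, 14.20 and 14.37, and rotenone hearts 13.77, 13.83, 13.86 and 14.05. One treated heart lay above the lowest control heart, and the log2 change was -0.31 (95% interval -0.57 to -0.05, limma adjusted p = 0.366). At day 14 control hearts read 13.82, 13.96, 13.98 and 14.10 and rotenone hearts 13.62, 14.04, 14.04 and 14.07. Rat 1 of the treated group was low and the other 3 lay within the control range. The log2 change was -0.02 (95% interval -0.28 to 0.24, adjusted p = 0.965).

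The rotenone effect on Slc16a1 was 0.87 ± 0.18 log2 units higher at day 14 than at day 1, which did not pass the test of that difference (limma adjusted p = 0.0637), when 0.0843% of clusters did. Without rat 1 of the day 14 rotenone group it passed, at 0.98 and adjusted p = 0.00689. The test across all 3 days gave an adjusted p of 0.155. Averaged over the 3 days the gene was lower by 0.41 log2 units (adjusted p = 0.000961). Of the 5 members, Slc16a1, Bdh1 and Acat1 were called in this average, in which 5.59% of clusters were called.

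Bsg, basigin, the chaperone that carries MCT1 to the plasma membrane, stayed within a narrow range. At day 1 control hearts read 13.21, 13.28, 13.32 and 13.37 and rotenone hearts 13.34, 13.36, 13.48 and 13.49. The ranges met, and the log2 change was 0.13 (95% interval -0.03 to 0.29, limma adjusted p = 0.706).

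At day 3 its control values of 13.17, 13.22, 13.22 and 13.26 all lay below its rotenone values of 13.36, 13.46, 13.48 and 13.49. The groups did not overlap, which held that day for Bsg and Bdh1 among the 5, for 12.8% of all genes and for 25.3% of those above the bound. The log2 change of 0.23 ± 0.08 (95% interval 0.07 to 0.39) did not pass over all clusters (limma adjusted p = 0.201), and it passed over the clusters above the bound alone (adjusted p = 0.0185). At day 14 the control values were 13.25, 13.28, 13.30 and 13.41 and the rotenone values 13.27, 13.29, 13.41 and 13.43. These overlapped almost fully, with a log2 change of 0.04 (95% interval -0.12 to 0.20, adjusted p = 0.89).

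Whether the transporter and its partner changed unequally was asked within each array, where scaling between arrays plays no part. The size of the within-array difference has no meaning of its own, because each gene has its own probes, but its shift between groups does. For Slc16a1 minus Bsg the control hearts lay at 0.68 ± 0.10 at day 1 and the rotenone hearts at -0.34 ± 0.20, a shift of -1.02 log2 units with no overlap. At day 3 the means were 0.97 ± 0.18 and 0.43 ± 0.13, a shift of -0.54, again with no overlap. Both gave p = 0.0286 in the exact two-sided permutation test of 4 against 4 rats, the smallest that 70 arrangements allow, and 0.0429 after adjustment over the 6 tests of this kind. That adjusted value depends on the other tests too, and would be larger if fewer of them reached the smallest p. At day 14 the shift was -0.06 (exact permutation p = 0.886 after adjustment).

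**Figure D2:**
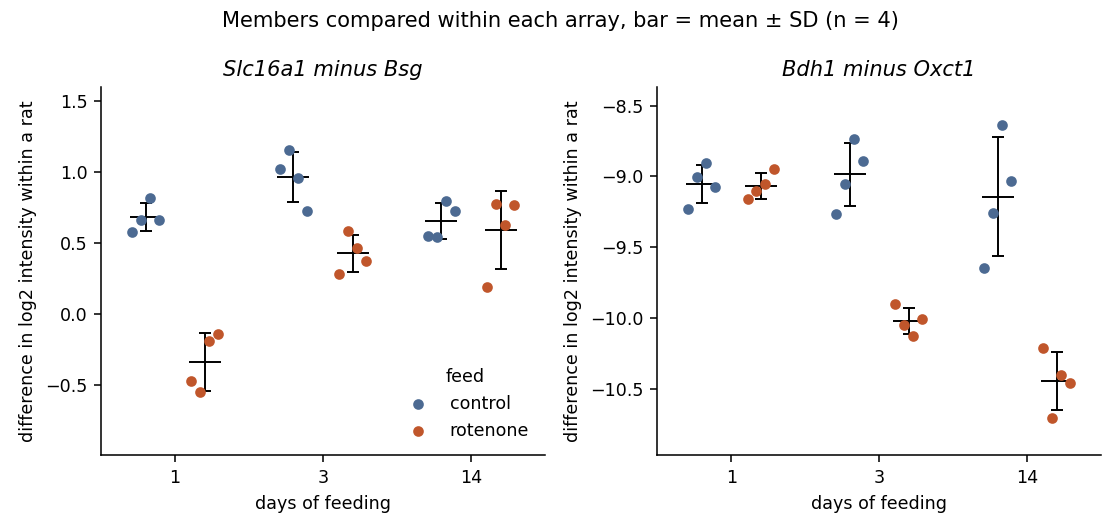
Difference in log2 intensity between 2 genes of the same rat (vertical axes) by days of feeding (horizontal axes), Slc16a1 minus Bsg on the left and Bdh1 minus Oxct1 on the right. Points are rats and bars the mean ± SD of 4. The transporter shifted against its partner by -1.02 at day 1 and -0.06 at day 14, whereas Bdh1 minus Oxct1 shifted by -0.01 at day 1 and -1.30 at day 14, or by -0.71 with Bdh1 values under the bound set to it.

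The second question was whether the mitochondrial enzymes changed. Bdh1, the dehydrogenase that turns beta-hydroxybutyrate into acetoacetate, did not pass the test at day 1 and fell at days 3 and 14. At day 1 control hearts read 9.17, 9.33, 9.53 and 9.67 and rotenone hearts 9.36, 9.48, 9.50 and 9.60. All treated values lay inside the control range, and the log2 change was 0.06 (95% interval -0.36 to 0.48, limma adjusted p = 0.97).

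At day 3 the control values were 9.29, 9.54, 9.66 and 9.79 and the rotenone values 8.11, 8.39, 8.39 and 8.63. All treated hearts were lower than all controls, and 3 of the 4 were under the dimness bound. The means were 9.57 ± 0.21 and 8.38 ± 0.21 (SD, n = 4), a fitted decrease of 2.28-fold (log2 change -1.19 ± 0.20, SE, limma adjusted p = 0.00378). Bdh1 was the only member called that day, when 0.84% of clusters and 2.91% of those above the bound were called.

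At day 14 the control values spread from 8.81 through 9.37 and 9.52 to 10.05, and the rotenone values were 7.34, 7.86, 8.04 and 8.15. There was no overlap, and all 4 treated hearts were under the bound, so the fitted decrease of 3.01-fold (log2 change -1.59 ± 0.20, limma adjusted p = 0.000169) is better read as at least 1.99-fold, against the bound in place of the treated mean of 7.85 ± 0.36. Both calls were kept with each array of the day left out, with adjusted p up to 0.0196 at day 3 and 0.00118 at day 14. With only the 8 arrays of day 14 in the fit the call was lost (adjusted p = 0.0695).

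The fitted rotenone effect on Bdh1 differed between days 14 and 1 by -1.65 ± 0.29 log2 units (limma adjusted p = 0.0259), the only such difference called among the 5 genes. With Bdh1 values under the bound set to it, the difference was -1.06 and no longer passed (adjusted p = 0.119). It passed in 9 of the 16 fits that left out 1 array, with adjusted p up to 0.0781 in the 7 others. The difference between days 3 and 1 did not pass (-1.25, adjusted p = 0.315), nor did the test across all 3 days (adjusted p = 0.0669), which 0.0145% of clusters passed.

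Markers of the red cell lineage moved on the same days as Bdh1. Of the 5 erythroid markers measured, 2 lay above the bound, none was called at day 1, 3 were lower at day 3 and 4 at day 14. Over all clusters 0.49%, 0.84% and 2.89% were called on these days. The 3 markers called at day 3 were Slc4a1, Ahsp and Epb42, of which Ahsp and Epb42 were under the bound in all hearts. Alas2, which weighs most in the sum of control hearts, was not called that day (log2 change -2.27, limma adjusted p = 0.0916). The summed level of the 5 markers was 11.35 to 12.21 in control hearts at day 3 and 9.41 to 10.57 in rotenone hearts. At day 14 it was 10.84 to 13.20 and 7.86 to 9.22, and at day 1 it was 11.05 to 12.19 and 11.45 to 13.08. The red cell list separated the groups on days 3 and 14 and not on day 1, which is the order seen for Bdh1. The part of these cells in the Bdh1 result was not tested, and in bulk tissue fewer cells of a type and less RNA per cell cannot be told apart.

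The gene whose pattern over the 24 arrays was most like that of Bdh1, of 5050 genes above the bound, was Slc4a1, the anion exchanger of the red cell membrane and one of those markers (Pearson r = 0.939, and 0.571 once the group means were removed). Slc4a1 read 9.37, 9.55, 9.80 and 9.88 in control hearts at day 3 and 7.75, 7.95, 8.03 and 8.08 in rotenone hearts. At day 14 it read 8.73, 9.07, 9.35 and 9.98 in controls and 6.69, 6.85, 7.41 and 7.88 with rotenone. Treated hearts were lower than controls on both days, as for Bdh1. Slc4a1 passed the bound on its mean over the 24 arrays, but all 4 treated values on each of these days were under it. Its r with Bdh1 therefore rests in part on dim values of both genes. The next in likeness were Lgals5, a galectin of rat red cells (r = 0.897), and Ube2o, a ubiquitin-conjugating enzyme of maturing red cells (r = 0.889). With the group means removed their r was 0.472 and 0.467. These correlations are descriptions, and the points share treatment, day and array.

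**Figure D3:**
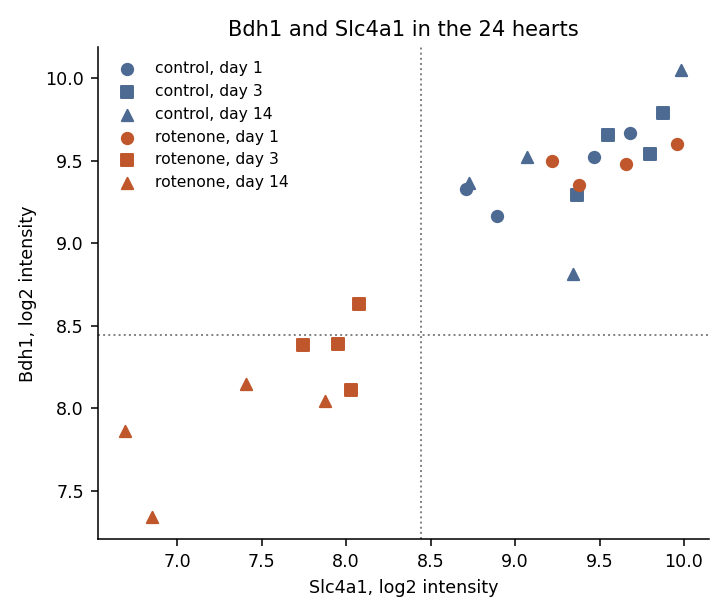
Log2 intensity of Bdh1 (vertical axis) against that of the red cell gene Slc4a1 (horizontal axis) in the 24 hearts, with colour for feed, shape for day and dotted lines at the dimness bound of 8.44. The 8 rotenone hearts of days 3 and 14 lie apart at the lower left, with Slc4a1 at 8.08 or less, and the 4 rotenone hearts of day 1 lie among the controls.

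Of 5 fibroblast markers 2 were called lower at days 3 and 14, as Bdh1 was, when 0.84% and 2.89% of all clusters were called. Pdgfra, Dcn and Tcf21, the last with a mean under the bound, were not called. Their log2 changes were -0.45, -0.18 and -0.26 at day 3 and -0.43, -0.32 and 0.43 at day 14 (limma adjusted p of 0.288 or more). Col1a1, a collagen chain, had log2 changes of -1.78 and -2.74 (limma adjusted p = 0.00247 and 2.19e-05), and Lum, a matrix proteoglycan, of -1.33 and -1.55 (adjusted p = 0.0055 and 0.00079). The list's summed level overlapped between the groups, at 16.52 to 16.68 in controls and 15.77 to 16.55 with rotenone at day 3. At day 14 it was 16.29 to 16.90 and 15.70 to 16.74. Dcn, with a mean of 16.36, weighs most in this sum, which therefore says little of Col1a1 and Lum. The part of fibroblasts in the Bdh1 result was not tested. No endothelial, smooth muscle, leukocyte, adipocyte or hepatocyte marker was called on any day.

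Oxct1, the succinyl-CoA transferase that commits acetoacetate to oxidation, was called on no day. At day 1 control hearts read 18.40, 18.41, 18.53 and 18.58 and rotenone hearts 18.52, 18.53, 18.55 and 18.60. Treated values overlapped the upper part of the control range, with a log2 change of 0.07 (95% interval -0.14 to 0.29, limma adjusted p = 0.916). At day 3 the controls read 18.53, 18.55, 18.55 and 18.59 and the treated hearts 18.12, 18.43, 18.51 and 18.53. One treated heart was low, and the log2 change was -0.16 (95% interval -0.37 to 0.06, adjusted p = 0.681).

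At day 14 Oxct1 read 18.46, 18.55, 18.62 and 18.69 in controls and 18.05, 18.25, 18.32 and 18.55 with rotenone. The groups overlapped through 1 treated heart. The log2 change of -0.29 ± 0.10 (95% interval -0.50 to -0.07) had an unadjusted limma p of 0.0116 and an adjusted p of 0.159, and it passed over the clusters above the bound alone (adjusted p = 0.0336). Its highest value was 42.3% of the brightest intensity on the arrays.

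The dehydrogenase and the transferase act one after the other, and they were also compared within each array. Bdh1 minus Oxct1 shifted by -0.01 log2 units at day 1 (exact permutation p = 0.886), by -1.03 at day 3 and by -1.30 at day 14. The later shifts had no overlap between groups, with exact permutation p = 0.0286 and 0.0429 after adjustment. They rest on treated Bdh1 values of which 3 of 4 at day 3 and all 4 at day 14 were under the bound. With those set to the bound the shifts were -0.92 and -0.71 and did not pass (exact permutation p = 0.0571 and 0.0857 after adjustment). The adjustment ties the 6 tests of this kind together, so a shift can lose its call because another test weakened. Over the 24 arrays Bdh1 was nonetheless the gene most like Oxct1 (Pearson r = 0.789, and 0.712 within groups). Next were Cdkn1a (r = 0.708, and 0.382 within groups) and Limch1 (r = 0.699, and 0.783 within groups). Within groups Limch1 was thus closer to Oxct1 than Bdh1 was.

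Acat1, the mitochondrial thiolase that splits acetoacetyl-CoA and also serves isoleucine breakdown, rose at day 14. At day 1 control hearts read 16.77, 16.79, 16.84 and 16.87 and treated hearts 16.82, 16.91, 16.94 and 16.95. The groups overlapped, with a log2 change of 0.09 (95% interval -0.09 to 0.27, limma adjusted p = 0.857). At day 3 controls read 16.68, 16.81, 16.90 and 16.94 and treated hearts 16.85, 16.88, 17.00 and 17.01. The overlap was again clear, with a log2 change of 0.10 (95% interval -0.08 to 0.28, adjusted p = 0.786).

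At day 14 the controls read 16.82, 16.90, 16.92 and 16.92 and the treated hearts 17.01, 17.23, 17.32 and 17.32. All treated hearts were above all controls, with means of 16.89 ± 0.05 and 17.22 ± 0.14 (SD, n = 4), which is 25.5% higher (log2 change 0.33 ± 0.09, SE, limma adjusted p = 0.0388). Acat1 and Bdh1 were the 2 of 5 members called at day 14, when 2.89% of clusters and 10.7% of those above the bound were called, and the 2 whose groups did not overlap, as in 11.4% of all genes and 21.6% of those above the bound.

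The Acat1 call was a weak one. It was lost in 7 of the 8 fits that left out 1 array of the day (adjusted p up to 0.132) and kept only without rat 1 of the rotenone group (adjusted p = 0.00683), and quantile normalization took the log2 change from 0.33 to 0.16 (adjusted p = 0.778). The genes most like Acat1 over the arrays were Trim54 (r = 0.925), Akap7 (r = 0.912) and Nrap (r = 0.888), with r of 0.84, 0.74 and 0.72 within groups.

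**Figure D4:**
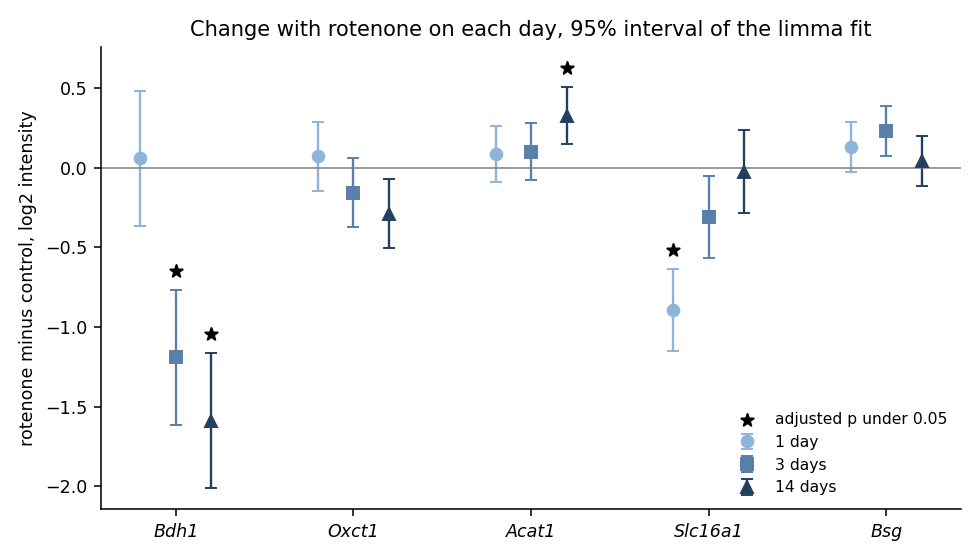
Rotenone minus control in log2 intensity (vertical axis) for the 5 genes (horizontal axis) at 1, 3 and 14 days, with the 95% interval of the limma fit and a star where the adjusted p was under 0.05. The 4 stars stand at day 1 for Slc16a1 (-0.89), at days 3 and 14 for Bdh1 (-1.19 and -1.59 as fitted, with most treated values under the bound) and at day 14 for Acat1 (0.33).

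The median log2 change of the 5 genes was 0.07, -0.16 and -0.02 at days 1, 3 and 14, and that of all clusters was 0.02, 0.03 and 0.04. In control hearts the log2 differences of these genes between days 14 and 1 ran from -0.01 to 0.10, with limma adjusted p of 0.894 or more. The genes most like Slc16a1 were Ctps1 (r = 0.850), Trim55 (r = 0.850) and Raph1 (r = 0.840), with r of 0.531, 0.267 and 0.351 within groups. Those most like Bsg were Sh3bp5 (r = 0.860), Mrpl57 (r = 0.824) and Mlycd (r = 0.806), with r of 0.68, 0.71 and 0.57 within groups.

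The rest of the pathway was described from lists of related genes. Of the other monocarboxylate carriers 14 of 15 were measured, and only Slc16a10, an aromatic amino acid carrier, had a mean above the bound. None was called at day 1, 1 was lower at day 3 and 1 at day 14, when 0.49%, 0.84% and 2.89% of all clusters were called. The list's median log2 change was 0.00, 0.02 and -0.04. Slc16a6 had control values of 6.86, 6.95, 7.00 and 7.19 at day 3 and rotenone values of 6.37, 6.39, 6.45 and 6.62, with no overlap and a log2 change of -0.54 (limma adjusted p = 0.00596). At day 1 its log2 change was -0.42 (adjusted p = 0.0605). Slc16a12, a creatine carrier, had a log2 change of -0.58 at day 14 (adjusted p = 0.0278), a call lost in 7 of 8 fits that left out 1 array. Both lay under the bound in both groups, so these log2 changes describe dim probes and are not read as sizes of a fold. Of the others, Slc16a9, Slc16a7, Slc16a5 and Slc16a4 were not called.

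Of basigin's relatives and its ligand, a list of 3 genes, none was called at day 1, 1 was lower at day 3 and 2 were lower at day 14. Their median log2 changes were -0.08, -0.35 and -0.74, on days when 0.49%, 0.84% and 2.89% of all clusters were called. The ligand, cyclophilin A (Ppia), was not called on any day. Nptn, neuroplastin, read 12.49, 12.50, 12.58 and 12.63 in control hearts at day 14 and 11.66, 11.68, 11.71 and 12.19 with rotenone. All treated hearts were below all controls, with rat 1 nearest to them, and the log2 change was -0.74 ± 0.11 (limma adjusted p = 0.000553), kept in all 8 fits that left out 1 array.

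Emb, embigin, which also partners monocarboxylate transporters, had log2 changes of -1.70 at day 3 (adjusted p = 0.0242) and -1.61 at day 14 (adjusted p = 0.0171). At day 3 controls read 7.83, 7.90, 8.26 and 8.57 and treated hearts 6.00, 6.18, 6.59 and 6.99. The groups did not overlap, but both means lay under the bound. The day 3 call was lost in 5 of the 8 fits that left out 1 array of the day, and the day 14 call without control rat 3 (log2 change -1.20, adjusted p = 0.063) or rotenone rat 4 (-1.36, adjusted p = 0.0808).

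Once inside the cell lactate is handled by lactate dehydrogenase. Ldha, the subunit common in glycolytic tissue, was called lower at days 3 and 14, and Ldhb, the heart subunit, higher at day 3. Ldha at day 14 read 15.08, 15.28, 15.30 and 15.38 in controls and 14.18, 14.20, 14.24 and 14.85 with rotenone. No value overlapped, and the log2 change was -0.89 ± 0.12 (limma adjusted p = 0.000218). At day 3 it was -0.55 (adjusted p = 0.0238), a call lost in 5 of 8 fits that left out 1 array, and at day 1 it was -0.34 (adjusted p = 0.361).

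Ldhb at day 3 read 17.04, 17.09, 17.18 and 17.21 in controls and 17.34, 17.44, 17.47 and 17.53 with rotenone. The log2 change was 0.32 (adjusted p = 0.0441), and 7 of 8 such fits lost it. The list of 6 lactate and pyruvate genes had no call at day 1, 1 higher and 1 lower at day 3 and 1 lower at day 14. Its median log2 changes were -0.02, 0.00 and -0.15, on days when 0.49%, 0.84% and 2.89% of all clusters were called. The list's other members, the pyruvate carrier subunits Mpc1 and Mpc2 and the dehydrogenases Ldhc and Ldhd, were not called.

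Among the 10 thiolases and succinyl-CoA enzymes, which share substrates with Acat1 and Oxct1, none was called at day 1, 1 was higher at day 3, and 1 was higher and 2 lower at day 14. The median log2 change was 0.08, 0.15 and 0.17, on days when 0.49%, 0.84% and 2.89% of all clusters were called. Hadhb, the thiolase subunit of the trifunctional protein of fatty acid oxidation, read 16.42, 16.50, 16.51 and 16.51 in controls at day 3 and 16.89, 16.96, 17.08 and 17.15 with rotenone. At day 14 it read 16.38, 16.56, 16.63 and 16.71 in controls and 16.98, 17.13, 17.16 and 17.20 with rotenone. Treated hearts were above controls on both days, with log2 changes of 0.54 and 0.55 (limma adjusted p = 0.00397 and 0.00177), and both calls were kept in all 8 fits that left out 1 array.

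Sucla2, a subunit of the succinyl-CoA ligase, and Dlst, a subunit of the enzyme complex that makes succinyl-CoA, had log2 changes of -0.53 and -0.51 at day 14 (limma adjusted p = 0.0406 and 0.0304). Their groups overlapped, and the calls were lost in 7 and 6 of 8 fits that left out 1 array. Acaa2, Acaa1a, Suclg1 and Suclg2 were not called on any day.

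**Figure D5:**
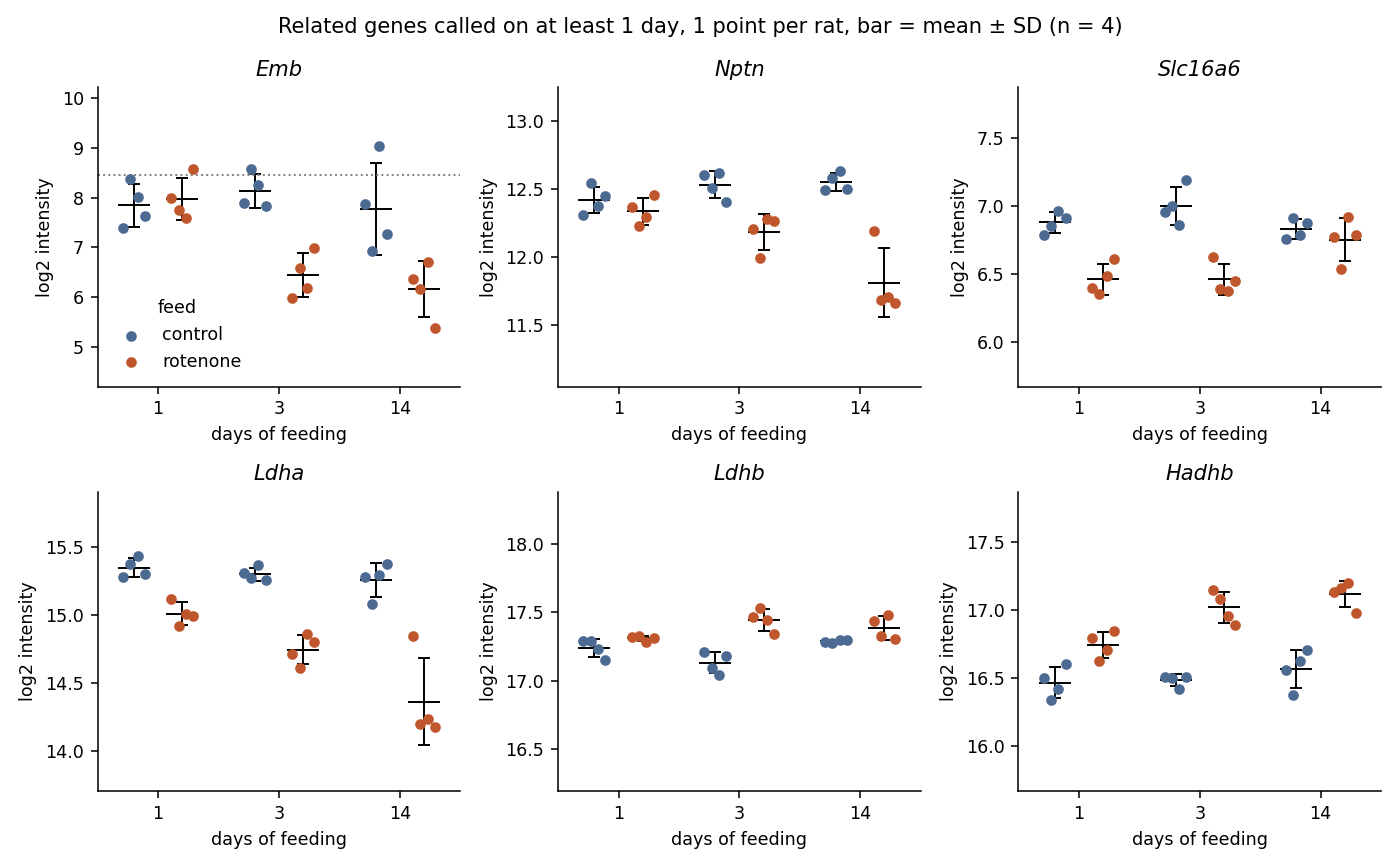
Log2 intensity (vertical axes) by days of feeding (horizontal axes) of 6 related genes that were called on at least 1 day, with 1 point per rat and bars for the mean ± SD of 4 rats. The dotted line is the dimness bound of 8.44, and all Slc16a6 values lie under it. Nptn and Ldha were lower with rotenone at day 14 (-0.74 and -0.89), Hadhb was higher at days 3 and 14 (0.54 and 0.55), and rat 1 of the day 14 rotenone group was the highest of its group for Nptn and Ldha.

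Genes of ketone body formation and cytosolic use were dim, as 5 of 8 were measured and 0 had a mean above the bound. None was called on any day (Bdh2, Acat2, Oxct2b and Aacs had the smallest unadjusted p), and the smallest unadjusted limma p of the list was 0.00158, for Bdh2. The median log2 change was -0.04, -0.10 and -0.06. Of 3 receptors for these acids only Ffar3 was measured, and it was not called.

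Of 9 regulators of fuel use 1 was called at day 3 and 1 at day 14, when 0.84% and 2.89% of all clusters were called. Pparg, a lipid-sensing nuclear receptor, had a log2 change of 0.62 at day 3 (limma adjusted p = 0.0249), under the bound in both groups. Hif1a, the oxygen-regulated subunit of hypoxia-inducible factor, had -0.42 at day 14 (adjusted p = 0.049) and -0.47 at day 1 (adjusted p = 0.0783). These calls were lost in 6 and 7 of 8 fits that left out 1 array, respectively. Ppara, Ppard, Nrf1 and Myc were not called, and the list's median log2 change was 0.07, 0.03 and -0.15.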

How the data were processed

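The deposited table holds linear intensities of 24 arrays, summarised per transcript cluster by the authors with a GC correction, a signal space transformation and RMA, and log2 of these intensities was used without further scaling. The software version behind them was not given in the sources used here, and 1738 control probes were left out of the tests. Symbols came from the platform annotation, in which 23446 clusters had 1 symbol, 505 several and 44891 none, and per gene the cluster with the highest mean was kept. A mean per group was fitted over the 24 arrays with limma 3.58.1 (R 4.3.3), with contrasts of rotenone minus control on each day, their mean and their differences, and Benjamini-Hochberg adjustment over 68842 clusters (threshold 0.05). The fit was tested on simulated data. Pairs of genes within an array were compared by exact permutation. Array number and probe brightness limit the precision. The limma p-values set a difference between groups against the spread between rats, pooled over the groups.

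All 5 genes, related genes called on any day, up to 4 others per list by smallest p, and the 3 genes of highest r per member were named. The genes and lists were chosen with earlier results of these data known. Some genes of these lists are not reported here. Promoter windows came from RefSeq (GRCr8) and matched all 5 genes. Figures were drawn with matplotlib in Python. Alternatives covered scaling, an offset, brightness filters, the clusters tested, variances, array weights, a replicate block, a minimum fold and leaving out arrays, and, added after seeing the data, Bdh1 values floored at the dimness bound.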

Additional observations from a re-analysis of the deposited data

Results flagged for a closer look

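The fitted effect of rotenone on Bdh1 differed between days 14 and 1 (difference -1.65 log2 units, limma adjusted p = 0.0259). All 4 treated hearts of day 14 were under the dimness bound, and with such values set to the bound the difference was -1.06 (adjusted p = 0.119). The call was lost in 7 of 16 fits that left out 1 array. The test across all 3 days did not pass in the main setting (limma adjusted p = 0.0669) or with values set to the bound (0.129). It passed in some other settings, with adjusted p from 0.016 (means above the bound) to 0.049 (quantile normalization).

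Single rats stood apart from the other 3 of their group in 15 of 228 groups of 4 (38 genes), where chance gives about 1 in 20. Among the 5 genes this concerned Slc16a1 in rotenone rat 1 of day 14, at 13.62 the lowest of its group. The same rat was the highest of its group for Nptn (12.19) and Ldha (14.85). The other values in rotenone hearts were 17.04 for Acaa2 (day 14, rat 3), 5.11 for Myc (day 14, rat 4), 5.63 for Ldhc (day 3, rat 4) and 13.04 for Suclg2 (day 1, rat 1). In control hearts of day 1 they were 7.16 for Bdh2, 3.99 for Slc16a5 and 7.21 for Pparg, all in rat 3, and 13.14 for Mpc2 in rat 4. In control hearts of day 3 they were 6.75 for Slc16a7 (rat 2) and 16.42 for Hadhb (rat 3), and in those of day 14 they were 15.10 for Sucla2 (rat 3) and 7.57 for Nrf1 (rat 1).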

How the results depend on the processing

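No called result changed sign. Slc16a1 at day 1 and Bdh1 at days 3 and 14 passed under every setting run but the fit with only the 8 arrays of a day, where 0 members were called at day 1, 1 (Bdh1) at day 3 and 0 at day 14, and 68, 123 and 118 clusters at days 1, 3 and 14. In the main setting 337, 578 and 1989 clusters were called, with 58 for day 14 minus day 1 and 10 across days. Acat1 left the calls at day 14, leaving 1 member, with equal array medians (clusters 365 at day 3, 1265 at day 14, 38 between days, 6 across days), with quantile normalization (across days 1 member and 30 clusters), with a minimum change of 1.8-fold (clusters 128, 232 and 513) and with the replicate block (Acat1 adjusted p = 0.0504, 1 cluster across days). Rat numbers did not pair the arrays (median correlation of same-numbered deviations 0.0415, and 9 of 24 arrays correlated best with their own number), and the block changed no other call of a member on a single day. Bsg joined at day 3, giving 2 members, with ordinary variances and in 3 settings that tested fewer features, namely means above the bound (clusters 643 and 936 at days 1 and 3), 1 cluster per gene (631 and 1247) and the mean of a gene's clusters (619 and 1226), which differ by construction in the number tested. Those 3 settings gave 2 members for day 14 minus day 1 (345, 211 and 208 clusters) and 2 across days (103, 112 and 111), in each case Bdh1 and Slc16a1. An offset of 16, means above the median, array weights and trend with robust variances gave 2 members and 114, 193, 206 and 96 clusters for day 14 minus day 1, and 1 member and 47, 81, 75 and 47 clusters across days. The 2 members were Bdh1 and Slc16a1, and the 1 member across days, here and with quantile normalization, was Bdh1. The offset also called 519 clusters at day 1, and means above the median 654, 1211 and 3303 on the 3 days. With 1 array left out, clusters called ranged from 172 to 282 at day 1, 301 to 500 at day 3, 885 to 3225 at day 14, 8 to 561 for day 14 minus day 1 and 0 to 233 across days, and members called from 1 to 2 at day 14, 0 to 2 for day 14 minus day 1 and 0 to 2 across days. The day 3 shifts ranged from -0.62 to -0.48 for Slc16a1 minus Bsg and from -1.13 to -0.95 for Bdh1 minus Oxct1. Each lost its call in 3 of 8 cases by exact permutation, where the adjusted p of a shift also depends on the other tests. The Acat1 call in the mean of the 3 days (adjusted p = 0.0413) was lost with equal medians, quantile normalization, trend with robust variances, the replicate block and 18 of 24 fits that left out 1 array (adjusted p up to 0.079), and members called in that mean ranged from 2 to 3. Setting Bdh1 values under the bound to the bound, chosen after seeing the data, gave Bdh1 minus Oxct1 shifts of -0.92 at day 3 and -0.71 at day 14, neither passing (exact permutation), and kept the Bdh1 calls at both days (-1.08 and -0.996, adjusted p = 0.00216 and 0.0025). The cause of other moves was not tested. Brightness limits Bdh1 in treated hearts, Emb and most carriers.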
